A study of Mus musculus with 16 samples.

Results

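The genes described here are 10 genes of protein folding and quality control in the endoplasmic reticulum (ER): Hspa5, Hsp90b1, Calr, Canx, Pdia3, Pdia4, Pdia6, Xbp1, Atf6 and Sel1l. They were taken by name from a list of unfolded protein response genes and not by their values, and each symbol matched 1 Ensembl identifier among the 55536 genes of the count table. The choice was made with earlier results of these data known. All 10 passed the filter on low counts, which left 15316 genes for testing. RNA was measured by poly(A)-selected RNA-seq in 1 cell line of the mouse inner medullary collecting duct, the last stretch of the kidney tubule, established from a Pkd2 knockout mouse. Its product polycystin-2 is a channel found in the ER membrane and in cilia, and its mutation causes a dominant form of polycystic kidney disease. By title all 16 libraries are from Pkd2KO cells, and doxycycline (DOX) induces the knockout. The 4 groups of 4 libraries were passage 4 without DOX (genotype label wild type), passage 4 with DOX (Pkd2KO induced by DOX), passage 7 without DOX (wild type) and passage 7 with DOX (Pkd2KO induced by DOX). Cells of every group spent 10 days on permeable filters, and those with DOX received 2 ug/mL over 6 days. The sources used here do not give the promoter that drives the induction or the number of clones or mice behind the line. No group received DOX while keeping Pkd2, so the effect of DOX itself and that of the knockout cannot be told apart.

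Proteins bound for secretion or for the cell membrane fold in the ER, where chaperones hold them, lectins retain glycoproteins until they are folded, and disulfide isomerases pair their cysteines. Proteins that fail are sent back to the cytosol and degraded. When unfolded proteins build up, the sensors ATF6, IRE1 (encoded by Ern1) and PERK (encoded by Eif2ak3) start the unfolded protein response: ATF6 is cut to release a transcription factor, IRE1 splices the Xbp1 transcript so that it encodes an active factor, and PERK slows translation and raises ATF4. ATF6 and spliced XBP1 act through an ER stress response element found before many chaperone genes. Tubule epithelium relies on this system to make its channels and transporters, polycystin-2 among them. Gene counts do not separate spliced from unspliced Xbp1 and do not show cleavage of ATF6, so only transcript levels are described.

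Total counts ranged from 9937504 to 17188295 per library, and the members were covered by 763 to 14265 counts in a library. Pkd2 itself ran from 135 to 145 CPM (counts scaled to a common library size, with TMM factors) without DOX and 47.8 to 57.4 CPM with DOX at passage 4, and from 184 to 187 against 47.6 to 65.9 CPM at passage 7. The level with DOX was 37.6% and 30.6% of that without, and the libraries did not overlap (exact permutation test, 2-sided p = 0.0286 at each passage, the smallest that 4 against 4 allows). The libraries fell into replicates 1 and 2 against replicates 3 and 4 in every group, for which the labels name no batch, and values within these pairs are given where they bear on a result. No label says that replicates are separate cultures, so a p-value here reflects no more than the spread among these libraries, which may be technical. In the deposited table of TPM values, headers of 12 of the 16 columns matched the counts of a library of another group best, so per-library values come from the counts alone. Of 20 collecting duct markers 16 were tested, while the water channel genes Aqp2, Aqp3 and Aqp4 and the transcription factor gene Elf5 were under 1 CPM in all libraries. The summed level of 8 leukocyte markers was 39.0 to 46.9 CPM and 20.1 to 35.6 CPM without and with DOX at passage 4, and 67.1 to 75.2 and 36.1 to 43.7 CPM at passage 7, while Adgre1, Itgam, Cd3e and Lyz2 among its defining markers were under 1 CPM throughout. The part of these markers in the results was not tested. In bulk RNA, fewer cells of a type and less RNA per cell cannot be told apart.

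The ER stress response element (ERSE) was searched for because it is the promoter sequence by which the chaperone genes are known to be induced together. RefSeq promoters (GRCm38.p6, 250 bases before to 50 bases after the start) were found for 9 of the 10 genes, all but Atf6. The element, CCAAT, then 9 bases of any kind, then CCACG, on either strand, occurred in 39 of 32851 RefSeq promoters, or 0.119%, and in 5 of the 9 members' promoters. Each match is printed on the strand of its gene with 10 bases on either side, with the 2 fixed parts of the element in capitals. A match that lies on the opposite strand shows them as CGTGG and ATTGG. The position given is that of the first capital relative to the RefSeq start.
Hspa5, chr2:34772015-34772053, plus strand, -65: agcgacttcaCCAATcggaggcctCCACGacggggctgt
Hsp90b1, chr10:86705628-86705666, minus strand, -212: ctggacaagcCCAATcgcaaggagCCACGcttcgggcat
Hsp90b1, chr10:86705523-86705561, minus strand, -107: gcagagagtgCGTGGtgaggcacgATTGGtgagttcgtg
Calr, chr8:84847065-84847103, minus strand, -162: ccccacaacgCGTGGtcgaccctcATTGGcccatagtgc
Canx, chr11:50325790-50325828, minus strand, -145: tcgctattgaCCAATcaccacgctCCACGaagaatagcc
Pdia6, chr12:17266481-17266519, plus strand, -98: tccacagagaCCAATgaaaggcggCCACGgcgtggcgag

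The matches thus lay before the 4 general chaperone and lectin genes and 1 disulfide isomerase gene, and Hsp90b1 held 2 of them. Between the fixed parts the spacers differed from gene to gene. These letters were not found in the windows of Pdia3, Pdia4, Xbp1 and Sel1l, although CCAAT alone occurred on either strand in Pdia3, Pdia4 and Sel1l, as in 37.4% of all promoters. The second element of this kind (ERSE-II, ATTGG, 1 base of any kind, CCACG) was in 0.0365% of promoters, the XBP1 and ATF6 element (UPRE, TGACGTGG) in 0.676% and the ATF4 element (CARE, TGATGCAA) in 0.895%, and none of the 3 was found in a member's window. The whole Hspa5 window is printed to show its only exact match to the ERSE letters, in capitals, in the surroundings of the start. On the same strand CCAAT also occurred at -186 and -98, without the exact letters of the full element. Copies of the element that differ from these letters were not searched for, so the number of elements in this window was not determined.
Hspa5, chr2:34771840-34772139, plus strand: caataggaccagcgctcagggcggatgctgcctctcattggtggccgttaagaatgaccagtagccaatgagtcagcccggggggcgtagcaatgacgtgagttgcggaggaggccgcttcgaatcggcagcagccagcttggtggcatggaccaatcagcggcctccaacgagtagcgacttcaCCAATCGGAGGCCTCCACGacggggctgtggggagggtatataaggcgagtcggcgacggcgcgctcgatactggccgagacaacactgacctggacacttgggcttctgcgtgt

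Compared per kilobase of exon, the members spanned the range from chaperones among the most abundant transcripts of the line to a sensor gene of middling level. Averaged over 16 libraries, the level of Calr, the lectin chaperone calreticulin, was 276 ± 46.2 CPM per kb (SD), above 99.3% of tested genes. Pdia3, the disulfide isomerase that works with calreticulin and calnexin, followed at 239 ± 28.9 CPM per kb. Hsp90b1 (174 ± 18.0) and Hspa5 (172 ± 13.9), the ER chaperones of the HSP90 and HSP70 families, had closely similar levels per kb and overlapped in 3 of the 4 groups. At passage 7 without DOX Hsp90b1 (172 to 194 CPM per kb) lay above Hspa5 (152 to 165). Canx, the membrane lectin calnexin, stood at 132 ± 12, Pdia4 at 92.1 ± 8.41 and Pdia6 at 60.0 ± 6.08 CPM per kb, both of them further disulfide isomerases. The remaining genes stood lower, with Xbp1 at 23.8 ± 2.79, Sel1l at 20.5 ± 2.70 and Atf6 at 11.4 ± 1.83 CPM per kb, the last above 66.3% of tested genes. At the upper end the mean of Calr stayed above that of Pdia3 in every group. Their libraries were apart without DOX (310 to 351 against 252 to 295 CPM per kb at passage 4) and overlapped with it at both passages (192 to 236 against 196 to 216 at passage 7). At the lower end the order changed: Xbp1 lay above Sel1l in 3 groups. In passage 7 with DOX Sel1l (24.1 to 24.8 CPM per kb) lay above Xbp1 (19.4 to 22.4) in every library. The other neighbours in this order did not overlap in any group. All 10 genes together took 0.484% ± 0.0372 of the counts at passage 4 without DOX and 0.441% ± 0.0193 with it, and 0.433% ± 0.0125 and 0.399% ± 0.0205 at passage 7 (SD, n = 4).

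**Figure D1:**
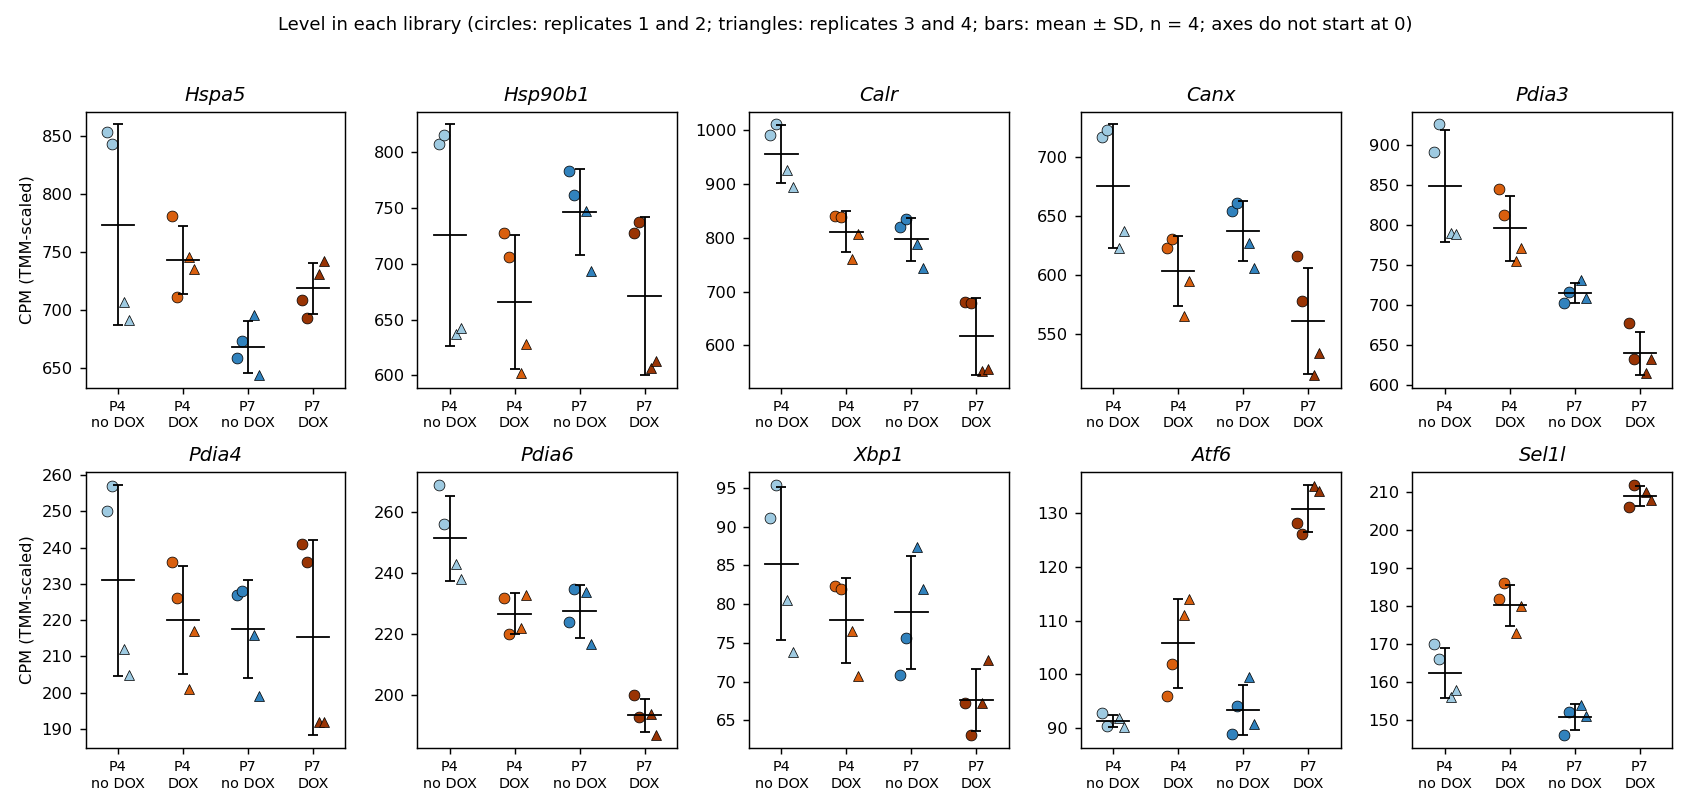
Level of each of the 10 genes in each library, in TMM-scaled CPM on axes that do not start at 0, by passage (P4, P7) and DOX; circles are replicates 1 and 2, triangles replicates 3 and 4, and black bars the mean ± SD of 4 libraries. Atf6 and Sel1l lie higher in all libraries with DOX at both passages, Calr and Pdia6 lower in all, and in Hsp90b1, Calr, Canx and Pdia4 the triangles lie below the circles in every group.

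With DOX the sensor gene and the gene of the degradation machinery rose, while the lectin chaperone genes and 2 of the 3 isomerase genes fell, and Hspa5, the usual readout of the unfolded protein response, passed the test in neither direction. Over both passages together 2 members rose (Atf6 and Sel1l) and 5 fell (Calr, Canx, Pdia3, Pdia6 and Xbp1). Of all 15316 tested genes 15.7% rose and 16.6% fell in this comparison (edgeR's quasi-likelihood test, adjusted p under 0.05). The median log2 fold change of the members was -0.13, against 0.00 for all tested genes. At passage 4 alone 2 members rose and 2 fell, where 8.45% and 9.1% of all genes did. These 4 of the 10 members had no overlap between libraries, beside 21.3% of all tested genes, called or not, in either direction. At passage 7 alone 2 rose and 4 fell, against 11.1% and 11.6% of all genes. Of the 10 members 5 had no overlap, all of them called, beside 25.2% of all tested genes, called or not.

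Atf6 (chr1:170704674-170867771, minus strand), which encodes the membrane-bound sensor and transcription factor, measured 92.8, 90.5, 91.9 and 90.3 CPM in replicates 1 to 4 at passage 4 without DOX and 96, 102, 111 and 114 CPM with it. Its values at passage 7 were 89.0, 94.1, 99.5 and 90.8 CPM without DOX and 128, 126, 135 and 134 CPM with it. Every library with DOX was above every library without it at the same passage, and the groups without DOX overlapped between passages. The increase was 15.9% at passage 4 (log2 fold change 0.21 ± 0.06 SE, edgeR adjusted p = 0.013) and 40.0% at passage 7 (0.49 ± 0.06, adjusted p = 5.2e-06). At passage 4 it was 0.11 within replicates 1 and 2 (edgeR adjusted p = 0.20) and 0.31 within replicates 3 and 4 (adjusted p = 0.00012). Without replicate 4 with DOX the adjusted p at passage 4 was 0.055. The passage 7 increase was 0.48 and 0.49 within the pairs.

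Sel1l (chr12:91806043-91849157, minus strand) encodes the adaptor of the HRD1 ubiquitin ligase, which passes misfolded proteins from the ER to degradation. It measured 170, 166, 156 and 158 CPM without and 182, 186, 173 and 180 CPM with DOX at passage 4. At passage 7 the values were 146, 152, 154 and 151 CPM without and 206, 212, 210 and 208 CPM with DOX. Neither pair of groups overlapped, and the 4 libraries of passage 7 with DOX were the highest of all 16. The increase was 11% at passage 4 (0.15 ± 0.04, edgeR adjusted p = 0.020) and 38.8% at passage 7 (0.47 ± 0.04, adjusted p = 2.3e-07). The call at passage 4 was lost on leaving out replicate 3 or 4 without DOX or replicate 2 with DOX (edgeR adjusted p from 0.052 to 0.064). Within pairs the change at passage 4 was 0.14 (replicates 1 and 2, edgeR adjusted p = 0.085) and 0.17 (replicates 3 and 4, adjusted p = 0.016).

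Calr (chr8:84841850-84846934, minus strand) fell most of the 10. It measured 992, 1011, 927 and 894 CPM without DOX and 840, 839, 760 and 807 CPM with DOX at passage 4. The passage 7 values were 820, 836, 788 and 744 CPM without and 680, 678, 553 and 556 CPM with DOX. The libraries with DOX were below all those without it at each passage, and replicates 3 and 4 of passage 7 with DOX were the lowest of all. The change was -15.1% at passage 4 (log2 fold change -0.24 ± 0.07, edgeR adjusted p = 0.025) and -22.6% at passage 7 (-0.37 ± 0.07, adjusted p = 0.00081). At passage 4 the call was lost without replicate 1 or 2 without DOX and without replicate 3 or 4 with DOX (edgeR adjusted p from 0.057 to 0.081), while within the pairs it was -0.25 and -0.22, each past the threshold. At passage 7 the change within pairs was -0.29 and -0.47.

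Canx (chr11:50293961-50325673, minus strand), the membrane-bound counterpart of Calr in the same retention cycle, measured 717, 723, 623 and 637 CPM without and 623, 630, 565 and 595 CPM with DOX at passage 4. At passage 7 it measured 654, 661, 627 and 606 CPM without and 616, 578, 515 and 534 CPM with DOX. In each passage 1 library with DOX lay above the lowest without it, and within each replicate pair every library with DOX was lower than both without it. Averaged over passages the change was -11.3% (-0.17 ± 0.05, edgeR adjusted p = 0.0063). At passage 4 it missed the threshold (-0.16 ± 0.06, edgeR adjusted p = 0.092) and passed it with the replicate number as a block (adjusted p = 0.0064). At passage 7 it passed (-0.18 ± 0.06, edgeR adjusted p = 0.045), a call lost on leaving out any of 6 of the 8 libraries: replicate 1, 2 or 3 without DOX or 2, 3 or 4 with DOX (adjusted p from 0.055 to 0.16).

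The disulfide isomerase genes did not move alike. Pdia6 (chr12:17266545-17284770, plus strand) measured 269, 256, 243 and 238 CPM without and 232, 220, 222 and 233 CPM with DOX at passage 4, and 224, 235, 234 and 217 CPM without and 200, 193, 194 and 187 CPM with DOX at passage 7. The groups did not overlap at either passage. It fell by 0.15 ± 0.05 on the log2 scale at passage 4 (edgeR adjusted p = 0.038) and by 0.23 ± 0.05 at passage 7 (adjusted p = 0.0015). The call at passage 4 was lost on leaving out replicate 1 or 2 without DOX or replicate 1, 2 or 3 with DOX (edgeR adjusted p from 0.053 to 0.14). Within pairs it was -0.21 (replicates 1 and 2) and -0.08 (replicates 3 and 4) at passage 4, and -0.22 and -0.25 at passage 7.

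Pdia3 (chr2:121413775-121438687, plus strand) measured 892, 926, 790 and 789 CPM without and 845, 813, 755 and 772 CPM with DOX at passage 4, which overlapped. At passage 7 it measured 703, 717, 732 and 709 CPM without and 678, 633, 615 and 633 CPM with DOX, which did not. Over both passages it was 8.45% lower by its fitted change of -0.13 ± 0.04 (edgeR adjusted p = 0.021), which reached 0.051 without replicate 2 of passage 4 without DOX. At passage 7 alone (-0.16 ± 0.06, edgeR adjusted p = 0.048) the call was lost on leaving out any single library but replicate 1 with DOX (adjusted p from 0.07 to 0.13). Pdia4 (chr6:47796141-47813430, minus strand) ranged from 205 to 257 CPM and from 201 to 236 CPM without and with DOX at passage 4. At passage 7 its ranges were 199 to 228 CPM and 192 to 241 CPM. Its groups overlapped throughout, and the averaged change was -0.04 with a 95% interval from -0.18 to 0.10 (edgeR adjusted p = 0.67).

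The 2 general chaperone genes passed no test of DOX in the fit without a block. Hspa5 (chr2:34771970-34777547, plus strand), which encodes BiP, the chaperone that also holds the sensors inactive, measured 853, 843, 707 and 691 CPM without and 781, 711, 746 and 735 CPM with DOX at passage 4. At passage 7 it measured 659, 673, 696 and 644 CPM without and 709, 693, 731 and 742 CPM with DOX. Both pairs of groups overlapped, and the spread at passage 4 without DOX came from the gap between replicates 1 and 2 and replicates 3 and 4. The averaged change was 0.02 with a 95% interval from -0.07 to 0.12 (edgeR adjusted p = 0.74), so a change within this interval is not excluded. The pairs differed in sign at passage 4, with -0.18 within replicates 1 and 2 (edgeR adjusted p = 0.026) and 0.08 within replicates 3 and 4 (adjusted p = 0.27). At passage 7 they gave 0.07 (edgeR adjusted p = 0.41) and 0.13 (adjusted p = 0.041).

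Hsp90b1 (chr10:86690209-86705509, minus strand), which encodes GRP94, measured 807, 815, 637 and 642 CPM without and 727, 706, 602 and 628 CPM with DOX at passage 4. Its passage 7 values were 783, 761, 747 and 693 CPM without and 727, 737, 607 and 613 CPM with DOX. Libraries with DOX overlapped those without at both passages, though each was lower than the library of the same number. The averaged change of -0.14 ± 0.06 missed the threshold (edgeR adjusted p = 0.12) and passed it with the replicate number as a block (adjusted p = 0.0021), as did passage 7 alone (-0.15 against -0.16 with the block, adjusted p = 0.27 and 0.014). Of its exons 10.29% overlap a pseudogene on the opposite strand, 1810014B01Rik, and the sources used here do not name the strand setting of the counting. On the same strand 3.3% overlap the microRNA gene Gm25745 and 2.08% the gene Gm15344. The part of these overlaps in its counts was not tested.

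Xbp1 (chr11:5520659-5525893, plus strand), which encodes the transcription factor activated by IRE1, ranged from 73.8 to 95.4 CPM without and from 70.7 to 82.4 CPM with DOX at passage 4. At passage 7 it ranged from 70.8 to 87.4 CPM without and from 63.1 to 72.8 CPM with DOX. The groups overlapped at both passages. Averaged over passages it was 11.5% lower (-0.18 ± 0.06, edgeR adjusted p = 0.028), and -0.17 within each replicate pair. That call was lost on leaving out replicate 1 or 2 without DOX or 4 with DOX at passage 4, or replicate 3 or 4 without DOX or 2 with DOX at passage 7 (edgeR adjusted p from 0.052 to 0.068).

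**Figure D2:**
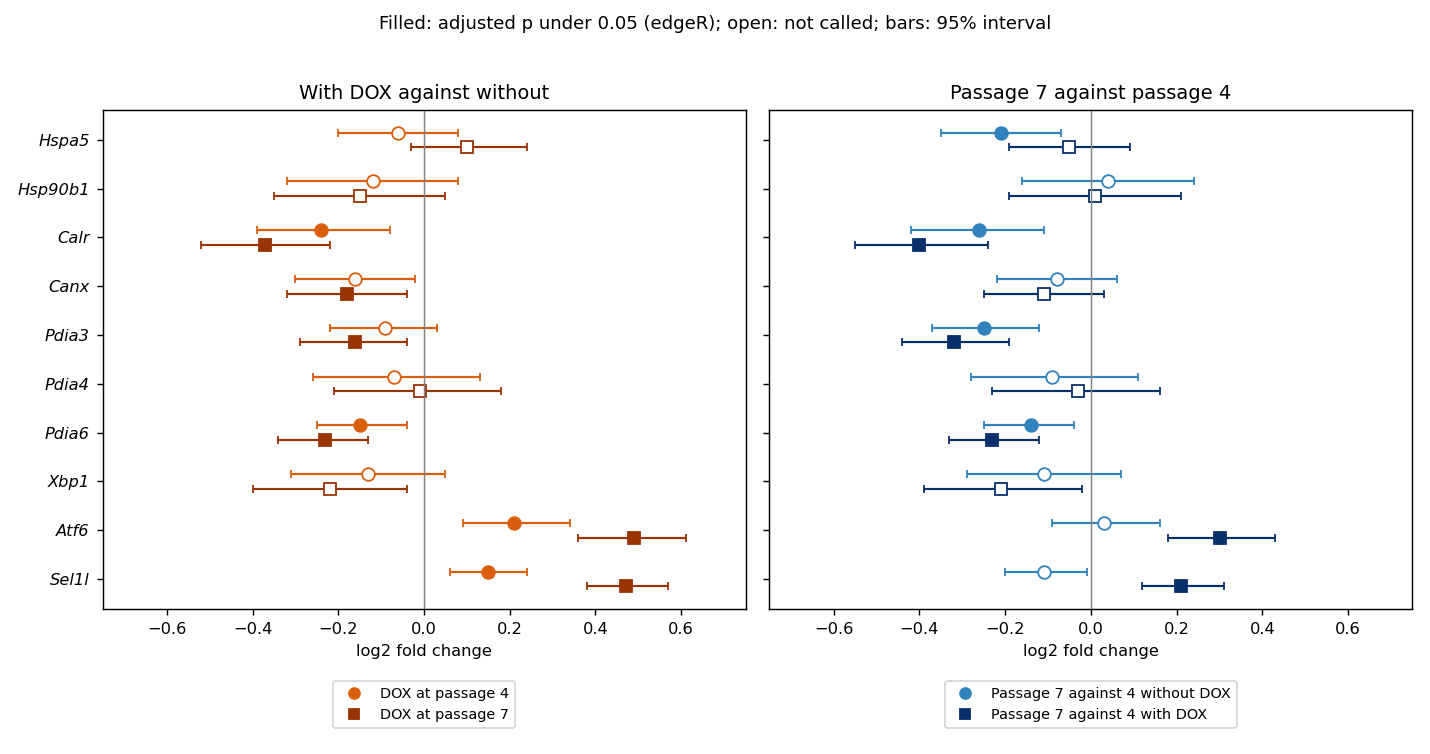
Fitted log2 fold change of each gene with its 95% interval, for DOX at each passage (left) and for passage 7 against passage 4 without and with DOX (right); filled symbols have an adjusted p under 0.05 by edgeR and open symbols do not. Atf6 and Sel1l stand to the right of 0 with DOX at both passages, at 0.49 and 0.47 at passage 7, while Calr stands to the left in all 4 comparisons.

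The response of Sel1l differed between the passages. Its increase with DOX was larger at passage 7 by 0.32 ± 0.06 on the log2 scale (95% interval 0.19 to 0.46, edgeR adjusted p = 0.0099), by 0.36 within replicates 1 and 2 and by 0.29 within replicates 3 and 4. It was the only one of the 10 past the threshold in this comparison without a block, in which 0.516% of all genes were higher and 0.679% lower. For Atf6 the difference was 0.27 ± 0.08 (edgeR adjusted p = 0.12), and with the replicate number as a block it passed (adjusted p = 0.023), which made 2 members of 10. With the block 287 of all 15316 tested genes were higher in this comparison and 428 lower, against 79 and 104 without it. Within replicates 1 and 2 the difference for Atf6 was 0.36 (edgeR adjusted p = 0.016) and within replicates 3 and 4 it was 0.18 (adjusted p = 0.30). For Calr, Canx, Pdia3, Pdia6 and Xbp1, the 5 that fell, the differences ran from -0.13 to -0.02 and none passed the test. Pkd2 itself changed by -1.41 at passage 4 and -1.71 at passage 7, a difference of -0.30 ± 0.11 (edgeR adjusted p = 0.26).

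Between passages 4 of the chaperone and isomerase genes were lower at passage 7 in the cells without DOX. Without DOX, 0 members rose and 4 fell, Hspa5, Calr, Pdia3 and Pdia6, where 14.3% of all genes rose and 11.3% fell, and the members' median was -0.11 against -0.01 for all genes. The count of 0 higher was also 0 at an unadjusted p under 0.05 by edgeR and 0 by DESeq2. Calr was 16.6% lower (-0.26 ± 0.07, edgeR adjusted p = 0.011) and Pdia3 15.7% lower (-0.25 ± 0.06, adjusted p = 0.0038), both with no overlap between libraries. Of the 10 members 4 had no overlap, called or not, beside 26.9% of all tested genes. Within pairs Pdia3 changed by -0.35 and -0.13, and Calr by -0.27 and -0.25.

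The passage change of Hspa5 without DOX (-0.21 ± 0.06, edgeR adjusted p = 0.020) was unequal in the replicate pairs, a difference that was not tested. It was -0.34 within replicates 1 and 2 (edgeR adjusted p = 0.00017) and -0.06 within replicates 3 and 4 (adjusted p = 0.39). The call was lost without replicate 1 or 2 of passage 4 or replicate 4 of passage 7 (edgeR adjusted p from 0.055 to 0.08). Pdia6 (-0.14 ± 0.05, edgeR adjusted p = 0.035) lost its call without replicate 1 or 2 of passage 4 or replicate 1 or 4 of passage 7 (adjusted p from 0.079 to 0.12). Sel1l was lower at passage 7 in all libraries, by 7.24%, and missed the threshold (edgeR adjusted p = 0.074), reaching 0.05 with the replicate block, under it before rounding. Xbp1 went opposite ways within the pairs, -0.34 in replicates 1 and 2 (edgeR adjusted p = 0.00061) and 0.13 in replicates 3 and 4 (adjusted p = 0.13). For Atf6 the passages differed by 0.03 without DOX (95% interval -0.09 to 0.16).

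With DOX, passage 7 against passage 4 gave 2 members higher, Atf6 and Sel1l, and 3 lower, Calr, Pdia3 and Pdia6, where 18.3% of all genes rose and 15.8% fell. These 5 of the 10 members had no overlap between libraries, beside 32.4% of all tested genes, called or not. Calr fell by 0.40 ± 0.07 (edgeR adjusted p = 0.0003), Pdia3 by 0.32 ± 0.06 (adjusted p = 0.00033) and Pdia6 by 0.23 ± 0.05 (adjusted p = 0.0013). Atf6 was higher by 0.30 ± 0.06 (edgeR adjusted p = 0.00042) and Sel1l by 0.21 ± 0.04 (adjusted p = 0.00079). Canx (-0.11 ± 0.06, edgeR adjusted p = 0.22) passed with the replicate block (adjusted p = 0.043), with a term for the replicate pair (adjusted p = 0.033) and with replicates 3 and 4 only (adjusted p = 0.022). Xbp1 (-0.21 ± 0.08, edgeR adjusted p = 0.063) passed with the pair term (adjusted p = 0.037), with replicates 1 and 2 only (adjusted p = 0.00067), with only the compared groups, and without replicate 4 of either group. Passage with DOX, passage without DOX and the DOX comparisons share libraries, so their values stand side by side and are not counted as repeats.

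**Figure D3:**
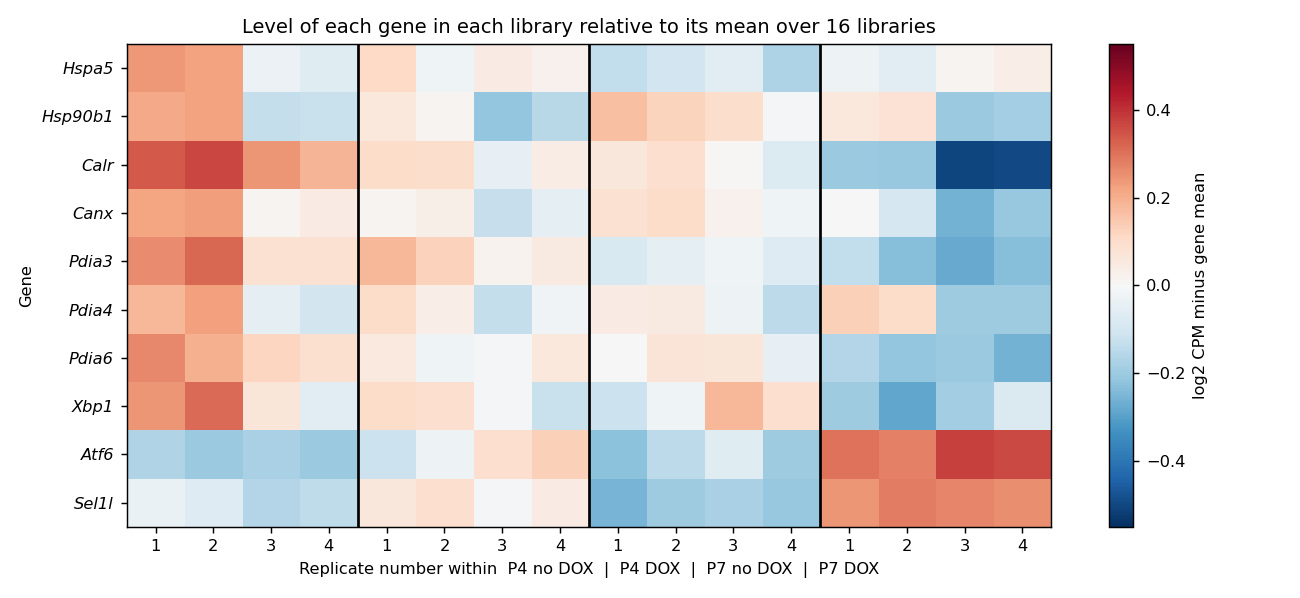
Log2 CPM of each gene in each of the 16 libraries minus the gene's mean over all 16, with red above and blue below the mean and black lines between the 4 groups; columns are replicates 1 to 4 within a group. Calr runs from the highest values at passage 4 without DOX to the lowest at passage 7 with DOX, Atf6 and Sel1l are highest at passage 7 with DOX, and Hsp90b1 and Pdia4 change between replicates 1 and 2 and replicates 3 and 4 within each group.

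The replicate pairs separated part of the family within every group. Hsp90b1, Calr, Canx and Pdia4 were lower in replicates 3 and 4 than in replicates 1 and 2 in all 4 groups, with mean log2 differences of -0.23, -0.16, -0.15 and -0.22. For Hsp90b1 and Pdia4 this was larger than their averaged change with DOX (-0.14 and -0.04). Sel1l differed least between the pairs together with Xbp1, at a mean of -0.03 each, but Xbp1 did so by opposite values, -0.28 and -0.16 in the passage 4 groups and 0.21 and 0.10 in those of passage 7. The labels name no difference between these replicates, and its part in the results beyond the within-pair values was not tested.

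By likeness over the 16 libraries (root mean square difference of mean-centred log2 CPM, genes of at least 20 CPM), Atf6 ran closest to Eif2s2 (0.069), Ybx3 (0.075), Rps15 (0.077), Rplp0 (0.078) and Prep (0.078). The gene's own spread by the same measure was 0.214. These are genes of translation initiation and the ribosome (Eif2s2, Rps15, Rplp0), an RNA-binding protein and a peptidase. The 5 genes closest to Hspa5 were Polr3k (0.046), Cept1 (0.054), Stk39 (0.061), Cct4 (0.062) and Msl3 (0.063), against a spread of Hspa5 of 0.11. The members were left out of both rankings, so these do not show whether another member lies closer.

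Among the other genes of ER protein handling some rose and some fell with DOX, and 11 of 16 genes in the list of PERK and integrated stress response genes rose. In 7 lists of the pathway with 160 tested genes in all (the 10 members are not among them), 26 rose and 27 fell over both passages. These pooled shares were near those of all tested genes, of which 15.7% rose and 16.6% fell. The PERK and integrated stress response list is 1 of the 7 and holds 11 of the 26 that rose and 0 of the 27 that fell. The pooled shares thus do not describe the other lists. The counts of the single lists that follow stand beside the same background. The median of the 160 was -0.01, against 0.00 for all tested genes. Among 15 tested sensor and membrane-bound transcription factor genes 2 rose and 4 fell (median -0.02), and with the replicate block 4 rose. With the block 3098 of all 15316 tested genes rose and 3318 fell, against 2401 and 2547 without it. Ern1, the gene of IRE1, rose by 0.24 ± 0.06 (edgeR adjusted p = 0.0057), in means from 41.6 to 46.2 CPM at passage 4 and from 34.2 to 43.0 CPM at passage 7. Its change missed the threshold at passage 4 alone (0.15, edgeR adjusted p = 0.27) and passed at passage 7 (0.33, adjusted p = 0.011). Eif2ak3, the gene of PERK, fell by 0.24 ± 0.04 (edgeR adjusted p = 0.00013), and Atf6b, the paralog of Atf6, had a change of -0.10 ± 0.04 (adjusted p = 0.048) that left the threshold in 12 of 16 fits without 1 library. The sensor genes thus differed in direction, with Atf6 and Ern1 higher and Eif2ak3 lower.

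Among 26 tested genes of ER-associated degradation 5 rose and 6 fell (median 0.00), beside 15.7% and 16.6% of all tested genes. Syvn1, which encodes the HRD1 ligase that SEL1L holds, fell by 0.25 ± 0.05 averaged over passages (edgeR adjusted p = 0.0015), opposite to Sel1l. At passage 4 alone it missed the threshold (-0.13, edgeR adjusted p = 0.26), and at passage 7 it passed (-0.37, adjusted p = 0.0019). Herpud1, another component of that complex, rose by 0.53 ± 0.13 (edgeR adjusted p = 0.0048), with 0.52 at passage 4 (adjusted p = 0.061) and 0.55 at passage 7 (adjusted p = 0.041). Edem2, Derl1 and Ube2g2 rose by 0.29, 0.18 and 0.22, and Vcp, Edem3 and Syvn1 were the 3 that fell with the smallest adjusted p (-0.21, -0.30 and -0.25). The complex therefore held members of both directions.

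For the folding, glycan, translocon and transport lists the background was again 15.7% of all tested genes higher and 16.6% lower. Of 26 tested other ER folding genes 2 rose, Sil1 (0.28 ± 0.05, a nucleotide exchange factor of BiP) and Dnajb11 (0.17 ± 0.03, a co-chaperone of BiP). In this list 2 fell, Sdf2l1 (-0.34 ± 0.08) and Prdx4 (-0.32 ± 0.07). With the replicate block these counts were 4 and 7. Over all 15316 tested genes 3098 rose and 3318 fell with the block, against 2401 and 2547 without it. The BiP-like chaperone gene Hyou1 (-0.10, edgeR adjusted p = 0.077) and the isomerase gene P4hb (-0.10, adjusted p = 0.11) did not pass without the block and passed with it (adjusted p = 0.017 and 0.043); Hyou1 also passed when replicate 3 or replicate 4 of passage 7 without DOX was left out. Dnajb9 did not pass (0.13, adjusted p = 0.24). Of 25 tested genes of N-glycan assembly and the calnexin cycle 2 rose and 5 fell, Uggt2 (-0.45 ± 0.11) among the latter. The translocon list had 3 higher and 3 lower of 25, with Spcs3 of the signal peptidase at -0.28 ± 0.05. ER to Golgi transport had 1 higher and 7 lower of 28, led by Sec23b (-0.37 ± 0.04), a COPII coat gene, and Kdelr3 (-0.66 ± 0.09), a retrieval receptor for ER chaperones. With the replicate block the higher genes were 4, 6 and 2 in these 3 lists, beside the same 3098 of all tested genes.

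The list of PERK and integrated stress response genes had 11 of 16 higher and 0 lower, with a median of 0.46. Like the other lists, it was chosen with earlier results of these data known. The count of 0 lower was also 0 by DESeq2 and 0 at an unadjusted p under 0.05 by edgeR. Ddit3, which encodes the stress factor CHOP, rose by 1.59 ± 0.07 (edgeR adjusted p = 6.2e-12), from 28.9 to 74.3 CPM at passage 4 and from 36.3 to 128 CPM at passage 7. Nupr1 rose by 1.21 and Atf5 by 0.93. Beside these, Hspa5 stood at 743 CPM with and 774 CPM without DOX at passage 4, and at 719 CPM with and 668 CPM without DOX at passage 7. Mitochondrial chaperone and protease genes had 7 higher and 1 lower of 12 (median 0.16), with Lonp1 at 1.02 ± 0.06 and Hspa9 at 0.75 ± 0.05. Cytosolic heat shock genes had 2 higher and 3 lower of 19 (median 0.01), and 4 and 5 with the replicate block. With the block 3098 of all 15316 tested genes rose and 3318 fell.

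**Figure D4:**
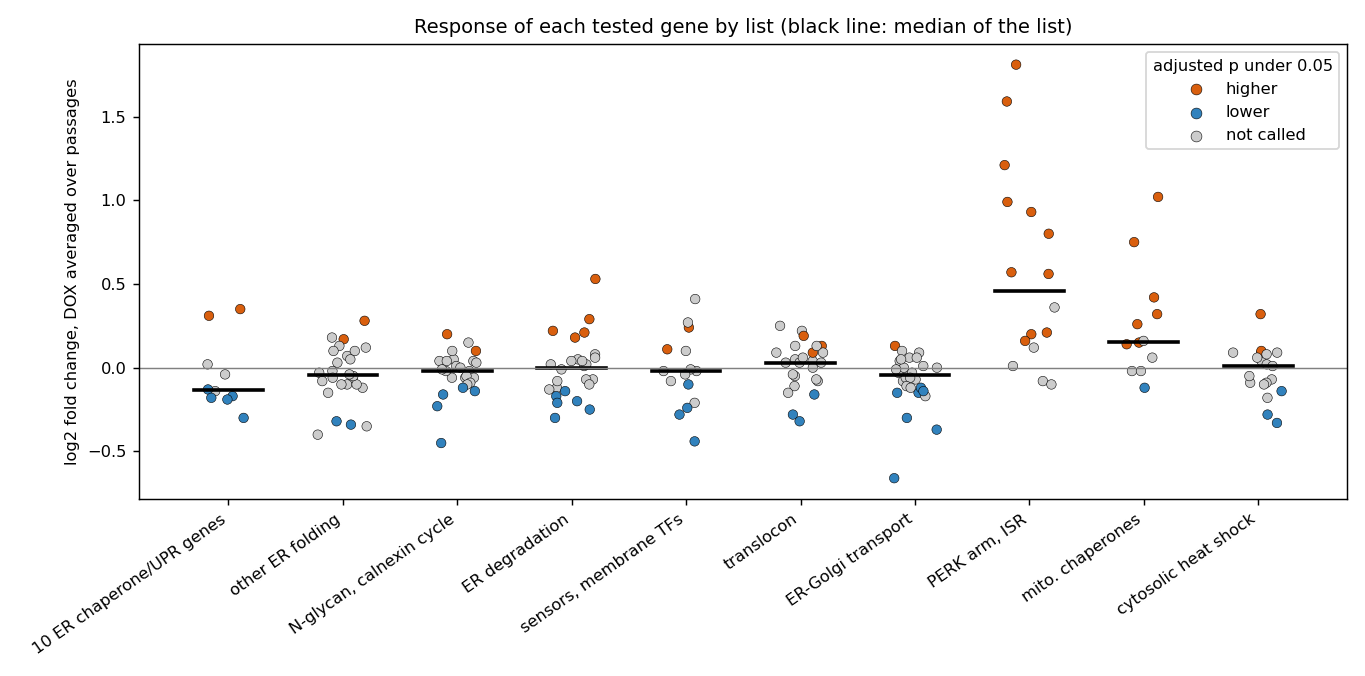
Log2 fold change with DOX averaged over the passages for each tested gene of the 10 described here and of the other lists, with 1 point per gene, orange for higher, blue for lower and grey for not called by edgeR at an adjusted p under 0.05, and a black line at the median of each list. The PERK and integrated stress response list has a median of 0.46, and the 10 ER genes have 2 points above 0.3 and a median of -0.13.

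Between passages without DOX the 7 lists had 14 genes higher and 42 lower of 160, with a median of -0.09, against -0.01 for all genes. Of all tested genes 14.3% were higher and 11.3% lower in this comparison, which is also the background of the single lists. Hyou1 was lower at passage 7 by 0.39 ± 0.06 (edgeR adjusted p = 8.8e-05), alongside Hspa5. Atf6b was lower by 0.32 ± 0.05 (edgeR adjusted p = 0.00032) and Vcp by 0.35 ± 0.05 (adjusted p = 6.7e-05), while Derl1 was higher by 0.31 ± 0.05 (adjusted p = 0.00014). Ern1 was also lower (-0.28 ± 0.09, edgeR adjusted p = 0.025), whereas Eif2ak3 (-0.05 ± 0.06, adjusted p = 0.59) did not pass. The folding list had 4 higher and 9 lower of 26, the glycan list 2 and 9 of 25, the degradation list 1 and 6 of 26, and transport 4 and 8 of 28.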

How the data were processed

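Poly(A) RNA of 16 libraries was sequenced with 2 reads of 75 bp per fragment from a strand-marking kit and aligned with STAR 2.6.0c to GRCm38.p6, per the labels' protocols. The authors deposited whole-number counts per Ensembl gene and a table of TPM values. The counting tool, annotation release, strand setting and TPM method are not given in the sources used here. The genes described and the lists beside them were chosen with earlier results of these data known.

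All tests used the deposited counts: edgeR 4.0.16 (R 4.3.3), filterByExpr (15316 of 55536 genes; 25677 had no count), TMM scaling, a robust quasi-likelihood fit of all libraries with 4 group means and 12 residual degrees of freedom, and Benjamini-Hochberg adjustment over all tested genes at 0.05. Symbols and positions came from the GRCm38 annotation for all 55536 identifiers. CPM per kb divides by the merged exon length, and promoters came from RefSeq (GRCm38.p6). The steps were tested on simulated data with 50 changed genes at each of several sizes. For DOX at passage 4 they recovered 18% of changes of 1.25-fold and 82% of changes of 1.5-fold. The changed genes were drawn at random from all but the lowest levels and not matched to the members, so these shares need not hold for the members. Of 153 calls 4 were false. A small change that was not called may therefore have been missed.

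Deviations from the group means were correlated between libraries of the same replicate number (r from 0.18 to 0.37, all positive), as did libraries of the same pair (1 and 2, or 3 and 4) with another number (0.18 to 0.39), against -0.34 to -0.18 across pairs. Libraries of the same number were thus no more alike than others of their pair. The data set the pairs apart and not the single numbers. A fit with the replicate number as a block, which also takes up the difference between the pairs, is given where a call differs. Its use rests on the data alone. TPM headers were compared with count columns by correlation: 4 matched the column of the same name best (best 0.97 to 0.981, next best at most 0.827) and 12 another. TPM values serve only as an alternative, by limma 3.58.1 on log2(TPM + 1), and for mean levels over all libraries. Other alternatives were DESeq2 1.42.0, RLE scaling, no filter, the compared groups alone, a term for the replicate pair, a non-robust fit and leaving out each library, and, chosen after the pairs were seen, replicates 1 and 2 only and 3 and 4 only.

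Named genes are the 10 members, Pkd2 and 10 pathway genes always given (Ern1, Eif2ak3, Atf6b, Hyou1, Dnajb9, Sdf2l1, Herpud1, Syvn1, P4hb, Ddit3). Beside them stand up to 3 in each direction of a list by adjusted p with DOX and up to 2 by passage. The 5 non-member genes most like Hspa5 and Atf6 are also named. Marker genes were given by list, and a withheld marker gene is not reported here.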

Additional observations from a re-analysis of the deposited data

Results flagged for a closer look

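The response to DOX differed between the passages, by a test of the difference itself (edgeR), in 3 of the genes named in the text. For Sel1l it was larger at passage 7 by 0.32 on the log2 scale (edgeR adjusted p = 0.0099), and the difference had the same sign in both replicate pairs. The mitochondrial chaperone genes Dnaja3 (0.35, edgeR adjusted p = 0.019) and Hspa9 (0.43, adjusted p = 0.035) also rose more at passage 7. In the 40 groups of 4 libraries that the 10 members form, no library stood apart from the other 3 by Dixon's criterion at 95%, where chance would give about 1 in 20.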

How the results depend on the processing

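Several calls at a single passage were lost on leaving out 1 library, as given beside them. No member had fewer than 763 counts in a library. The alternatives below were each fitted over all genes, and for each value that moved the cause was not tested unless fewer libraries or more tested genes account for it by construction.

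With all 16 libraries averaged over passages, Calr, Canx and Pdia6 kept lower and Atf6 and Sel1l kept higher calls in each fit that left out 1 library. By DESeq2 167 of 170 results and by RLE scaling 168 of 170 kept their direction and side of the threshold. Without the filter on low counts the members called at passage 4 were 1 higher and 1 lower, at passage 7 2 lower, and Pdia4 at passage 7 was 0.00. Of 29859 genes this fit called 1118 higher and 1235 lower at passage 4 and 1442 lower at passage 7. With only the compared groups the members called were 1 higher and 1 lower at passage 4, and 2 lower between passages without DOX. Beside these stood 1157 higher and 1196 lower of 14704 genes, and 1549 lower of 14806. The non-robust fit left 2 members lower at passage 7, beside 1780 of 15316 genes.

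With the replicate block or the pairing by a pair term, 2 members differed in response between passages, where 1 did without. Of all 15316 genes 287 were higher and 428 lower in this comparison with the block, and 339 and 482 with the pair term. The block changed no member's call beyond those given beside the results. The pair term also gave 5 members lower between passages with DOX, Canx and Xbp1 in addition, and 43 pathway genes lower with DOX. Of all 15316 genes it gave 3406 lower between passages with DOX and 3388 lower with DOX averaged over passages.

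With replicates 1 and 2 only, the members at passage 4 were 0 higher and 5 lower, at passage 7 2 lower, in the difference of responses 2 higher, and between passages without DOX 7 lower. Of 15357 genes this fit called 1682 higher and 1595 lower at passage 4 and 1608 lower at passage 7. It called 347 higher in the difference, against 79 of 15316 with all libraries, and 2062 lower between passages without DOX. Changes of sign were Pdia4 at passage 7 (0.07) and between passages with DOX (0.05), Hspa5 averaged (-0.05), Hsp90b1 between passages without DOX (-0.06), and in the difference of responses Hsp90b1 (0.10), Canx (0.06), Pdia3 (0.02) and Xbp1 (0.01). With replicates 3 and 4 only, 1 was lower at passage 4, 1 lower in the difference of responses, and 1 higher and 2 lower between passages without DOX. Of 15449 genes this fit called 1838 lower at passage 4 and 322 lower in the difference. Between passages without DOX it called 2609 higher and 2225 lower. Changes of sign were Hspa5 (0.08) and Pdia4 (0.00) at passage 4, Pdia4 in the difference (-0.12), Xbp1 between passages without DOX (0.13) and Hsp90b1 with DOX (-0.01).

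Leaving out each library in turn, the members called ran from 1 to 2 higher and 0 to 2 lower at passage 4, 2 to 4 lower at passage 7, 3 to 5 lower averaged and 2 to 4 lower between passages without DOX. Over all tested genes the same fits gave 1033 to 1217 higher and 1118 to 1386 lower at passage 4, and 1432 to 1642 lower at passage 7. They gave 2283 to 2575 lower averaged and 1394 to 1562 lower between passages without DOX. Values that changed sign ran for Pdia4 from -0.07 to 0.04 at passage 7, from -0.01 to 0.11 in the difference and from -0.09 to 0.02 between passages with DOX. They ran for Hsp90b1 from -0.09 to 0.03 in the difference, from -0.02 to 0.10 between passages without DOX and from -0.04 to 0.06 with it. They ran for Canx from -0.07 to 0.01 in the difference, for Hspa5 from 0.00 to 0.05 averaged and for Atf6 from 0.00 to 0.05 between passages without DOX. Of the list counts with DOX, the glycan list ran from 1 to 3 higher and 2 to 5 lower, the translocon list from 1 to 4 higher and 3 to 5 lower, the other ER folding list from 2 to 4 higher and 2 to 4 lower, the transport list from 1 to 2 higher, the cytosolic heat shock list from 2 to 4 higher and the mitochondrial list from 0 to 1 lower.

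From the mean of the deposited TPM values, the shares of the members' summed level were 9.85% for Canx, 18.4% for Pdia3, 6.28% for Pdia4, 7.04% for Pdia6 and 2.48% for Xbp1, against 11%, 19.9%, 7.69%, 5.0% and 1.99% from CPM per kb. With the TPM columns taken as headed, Pkd2 changed by -0.06 at passage 4 and by 0.18 at passage 7, against its labels, so those values say little. The members called were then 0 higher at passage 4, at passage 7, in the difference and averaged (3 lower averaged), 1 higher and 2 lower between passages without DOX, and 12 pathway genes were higher. Of all 15316 genes 227 were higher at passage 4, 269 at passage 7, 0 in the difference and 865 averaged, with 1697 lower averaged. Between passages without DOX 499 were higher and 854 lower. Members of changed sign were Sel1l (-0.04 at passage 4, -0.08 at passage 7, -0.04 in the difference, -0.06 averaged, 0.27 between passages without DOX), Hspa5 (-0.02 at passage 7, -0.09 averaged, 0.03 between passages with DOX), Hsp90b1 (-0.17 and -0.22 between passages without and with DOX), and in the difference Pdia4 (-0.06) and Pdia6 (0.02). Averaged over passages so did Alg1 (-0.03), Atf6b (0.00), Cct3 (0.02), Copg1 (-0.07), Ddit3 (-0.05), Dnaja3 (-0.08), Dnajb4 (0.05), Edem2 (-0.08), Ern1 (-0.13), Hspa1b (-0.08), Hspa4 (0.00), Prdx4 (0.03), Rpn1 (-0.05), Rtcb (-0.01), Sil1 (-0.10), Srp72 (-0.04), Syvn1 (0.12), Uggt2 (0.03) and Vcp (0.04), and between passages without DOX Dnajc3 (0.10), Eif2ak1 (-0.01), Erp29 (-0.08), Sec13 (-0.03), Srpr (0.09) and Tmed2 (-0.05).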

Other observations

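Outside the members, the exact ERSE letters were found in few promoters of the other lists: those of Dnajc3, Creld2 and Ero1b among the folding genes, Syvn1 and Derl3 among the degradation genes and Calr4 in the glycan list, and in none of the sensor, translocon or transport lists. Matched by symbol, 18 tested genes had an ERSE in their promoter, the 5 members among them. With DOX averaged over the passages 1 of the 18 was higher and 4 were lower, against 16.4% and 17.5% of the 10654 tested genes with a promoter in the table. The 4 lower genes were the members Calr, Canx and Pdia6, and Syvn1. Between passages without DOX 1 was higher and 5 were lower, the members Hspa5, Calr and Pdia6 among them, against 15.2% and 11.9%. Most of the lower calls thus repeat those given above for the members. The median log2 fold change of the 18 with DOX was 0.04. These are descriptions of genes that share letters, with no test of the set.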
